A study of Mus musculus with 40 samples.

Results

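*Slpi*, *Lcn2*, *Saa3*, *S100a8*, *S100a9*, *Lyz1*, *Lyz2* and *Mpeg1* encode antimicrobial proteins of phagocytes, most of them secreted, and their mRNAs were followed here in macrophages responding to lipopolysaccharide (LPS). These 8 genes were taken by symbol from the 27179 genes of the expression table. *Slpi* was selected on its measured rise in *Cpeb4* knockout cells at 6 hr, so that its genotype difference at 6 hr is given as a description without a test, and the other 7 were added by function. The data were 40 poly(A) RNA-seq libraries from bone marrow-derived macrophages (BMDMs), grown from the femurs of 8 adult male mice of mixed C57BL/6J and 129 background with L-cell conditioned medium as the source of M-CSF. Cells of 4 wildtype (WT) mice and 4 mice with a full knockout of *Cpeb4*, which encodes a cytoplasmic polyadenylation element-binding protein (*Cpeb4*-/-, CPEB4-KO in the labels), were left unstimulated (0 hr) or given *E. coli* LPS at 10 ng/ml for 1, 3, 6 or 9 hr. Each mouse gave all 5 times, each of 2 labelled batches held 2 mice of each genotype, and no cage held mice of both genotypes, so that cage and genotype cannot be told apart. The labels name no Cre for these mice.

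Each of these proteins withholds something from microbes or damages them. SLPI is a small secreted protein built of a pair of WAP domains that blocks serine proteases such as neutrophil elastase. Lipocalin 2, the product of *Lcn2*, captures bacterial siderophores and so keeps iron away, and *Saa3* encodes the serum amyloid A that macrophages themselves make. S100A8 and S100A9 pair to form calprotectin, which binds zinc and manganese and leaves the cell without a signal peptide. Lysozyme, made in macrophages mostly from *Lyz2* and in Paneth cells of the gut from *Lyz1*, cuts bacterial peptidoglycan, and MPEG1 (perforin-2) is a membrane protein that forms pores in engulfed bacteria.

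All values are regularised log (rlog) values, log2 of normalised read counts that shrink low counts towards the gene's mean. A difference of 1 is a doubling on this scale, which for genes with low counts can be smaller than the change in the counts. They are not divided by gene length, and levels are therefore compared between samples and not between genes. A gene was called changed where its adjusted p in limma was below 0.05 among all genes tested. At the level of the whole gene, *Cpeb4* itself was lower in *Cpeb4*-/- BMDMs at 6 hr, at 9.18 against 10.45 on average (limma adjusted p = 0.0011, a model across all genes with 4 libraries a group), and the genotypes overlapped at 0, 1, 3 and 9 hr. The table does not separate the exons that a knockout allele may keep, so *Cpeb4* checks the labels at 6 hr only. All 9 macrophage markers measured were expressed, *Adgre1* (F4/80) between 15.5 and 16.5 and *Csf1r* between 15.1 and 15.9, while *Ly6g* and *Elane*, which define neutrophils, stayed below 0 in every library. Of 16 neutrophil markers 5 were expressed, among them *Csf3r*, between 10.62 and 13.43, and *Mmp8*, between 7.69 and 9.07. In the cultures used, fewer cells of a type and less RNA per cell cannot be told apart.

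The 3 members that rose most with LPS were *Slpi*, *Lcn2* and *Saa3*, and their promoters are shown for this reason, as the 250 bases before the start in RefSeq (GRCm38.p6, which is mm10), 5′ to 3′ on the gene's strand. *Slpi* lies at chr2:164354070-164356507 and *Lcn2* at chr2:32384637-32387739, far apart on the same chromosome, and *Saa3* at chr7:46711998-46719615. Capitals mark matches to the C/EBP letters TT NN G N AA, the kB letters GGG NNNNN CC, the STAT letters TTC NNN GAA or the ISRE letters GAAA NN GAAA (N being any base, and the spaces not part of the motif) on either strand.
Slpi, chr2:164356508-164356757, minus strand: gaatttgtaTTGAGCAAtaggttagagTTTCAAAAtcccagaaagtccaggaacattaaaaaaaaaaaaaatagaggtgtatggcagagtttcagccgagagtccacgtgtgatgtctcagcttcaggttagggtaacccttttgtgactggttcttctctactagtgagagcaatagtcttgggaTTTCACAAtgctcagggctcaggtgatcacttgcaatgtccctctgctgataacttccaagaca
Lcn2, chr2:32387740-32387989, minus strand: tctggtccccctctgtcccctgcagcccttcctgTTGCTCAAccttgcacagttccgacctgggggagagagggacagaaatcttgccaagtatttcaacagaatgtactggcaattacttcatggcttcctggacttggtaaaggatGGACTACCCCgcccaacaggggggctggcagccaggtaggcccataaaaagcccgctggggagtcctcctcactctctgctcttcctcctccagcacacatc
Saa3, chr7:46715677-46715926, minus strand: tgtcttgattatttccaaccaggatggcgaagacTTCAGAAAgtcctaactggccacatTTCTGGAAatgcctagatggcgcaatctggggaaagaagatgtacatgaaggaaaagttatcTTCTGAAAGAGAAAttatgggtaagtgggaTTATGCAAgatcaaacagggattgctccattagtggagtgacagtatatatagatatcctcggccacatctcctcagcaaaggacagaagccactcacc
The *Slpi* window held 3 C/EBP matches, that of *Lcn2* held 1 C/EBP and 1 kB match, and that of *Saa3* held 4 C/EBP matches and 1 ISRE match that overlaps one of them. Of 32851 promoters of this length, 36.8% held a C/EBP match, 45.8% a kB match, 7.02% a STAT match and 2.98% an ISRE match. All 8 members matched an entry, and 7 of them held at least 1 C/EBP match, the exception being *Mpeg1*, which held 3 overlapping kB matches. The start that RefSeq's table gives for *Saa3* lies inside the span of the gene given above, so its window does too. These matches are letters in a window and were not tied to binding by any factor.

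*Slpi* read higher in every *Cpeb4*-/- library than in any WT library at 0, 6 and 9 hr, and the genotypes overlapped at 1 and 3 hr. At 6 hr, the comparison for which it was chosen, the *Cpeb4*-/- libraries read 8.10, 7.85, 7.68 and 8.11 and the WT libraries 6.49, 6.39, 6.60 and 6.56. Every knockout library was above every WT library. The means of 7.94 ± 0.21 and 6.51 ± 0.093 (SD, n = 4) were 1.43 apart on the log2 scale, or 2.69-fold. The difference was 1.46 in batch 1 and 1.40 in batch 2, and lay between 1.37 and 1.51 when any 1 mouse was left out. Among all genes tested at 6 hr, 8.16% had knockout libraries wholly above WT, which is given for scale and not as a test of *Slpi*.

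The 9 hr libraries were not used to choose *Slpi*, although they came from the same mice. There the *Cpeb4*-/- libraries read 9.42, 9.14, 9.09 and 9.19 and the WT libraries 7.60, 8.20, 7.75 and 8.21. The groups again did not overlap, and *Slpi* was 1.27 higher in the knockout (SE 0.14, limma adjusted p = 0.0013), 1.26 in batch 1 and 1.28 in batch 2. At this time 8.35% of all genes had knockout libraries wholly above WT.

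Before LPS *Slpi* read 5.33, 5.08, 5.50 and 5.47 in *Cpeb4*-/- and 4.23, 4.89, 4.80 and 4.74 in WT. These libraries did not overlap either, a state shared by 5.51% of all genes in this direction, but the difference of 0.69 (SE 0.16) missed the threshold in the fit of the 8 unstimulated libraries (limma adjusted p = 0.062). It passed when all 40 libraries were fitted with the mouse as replicate block (limma adjusted p = 0.0046), where 224 of 13103 genes were called higher. At 1 hr the difference was 0.42 (SE 0.14, adjusted p = 0.091) and at 3 hr 0.29 (SE 0.11, adjusted p = 0.16), with overlapping libraries at both times. With the block it was called at 1 hr (limma adjusted p = 0.028), as were 2274 of 13103 genes in this direction.

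The mRNA of *Slpi* rose over the course of LPS. In WT BMDMs the gain over 0 hr was 0.53, 1.25, 1.85 and 3.28 at the successive LPS times (SE 0.14 each, limma adjusted p = 0.0029, 8.59e-10, 2.87e-14 and 2.68e-21). In *Cpeb4*-/- BMDMs it rose by 0.86 at 3 hr (limma adjusted p = 1.76e-06) and 3.86 at 9 hr (limma adjusted p = 2.29e-23), the 0.27 at 1 hr missed the threshold (adjusted p = 0.14), and the 6 hr value, 2.59 above 0 hr, is given without a test. The step from 3 to 6 hr was 1.73 ± 0.40 in the knockout and 0.59 ± 0.075 in WT, and the step from 6 to 9 hr was 1.27 ± 0.14 and 1.43 ± 0.35 (SD over 4 mice), a description, since both steps use the 6 hr values by which *Slpi* was chosen. Knockout cells at 6 hr, at 7.94, stood where WT cells stood at 9 hr, also at 7.94, and the ranges of 7.68 to 8.11 and 7.60 to 8.21 overlapped. In the order of the 10 groups, *Slpi* was lowest in WT at 0 hr and highest in *Cpeb4*-/- at 9 hr, and neighbours in that order stood apart at 3 of 9 places. Among these places is that of the knockout above WT at 6 hr, by which *Slpi* was chosen, so nothing is read from the count. Whether the LPS response itself differed by genotype was tested at 9 hr, where the response was 0.58 larger in the knockout (SE 0.20) and missed the threshold (limma adjusted p = 0.15, and 0.071 with the mouse as replicate block).

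**Figure D1:**
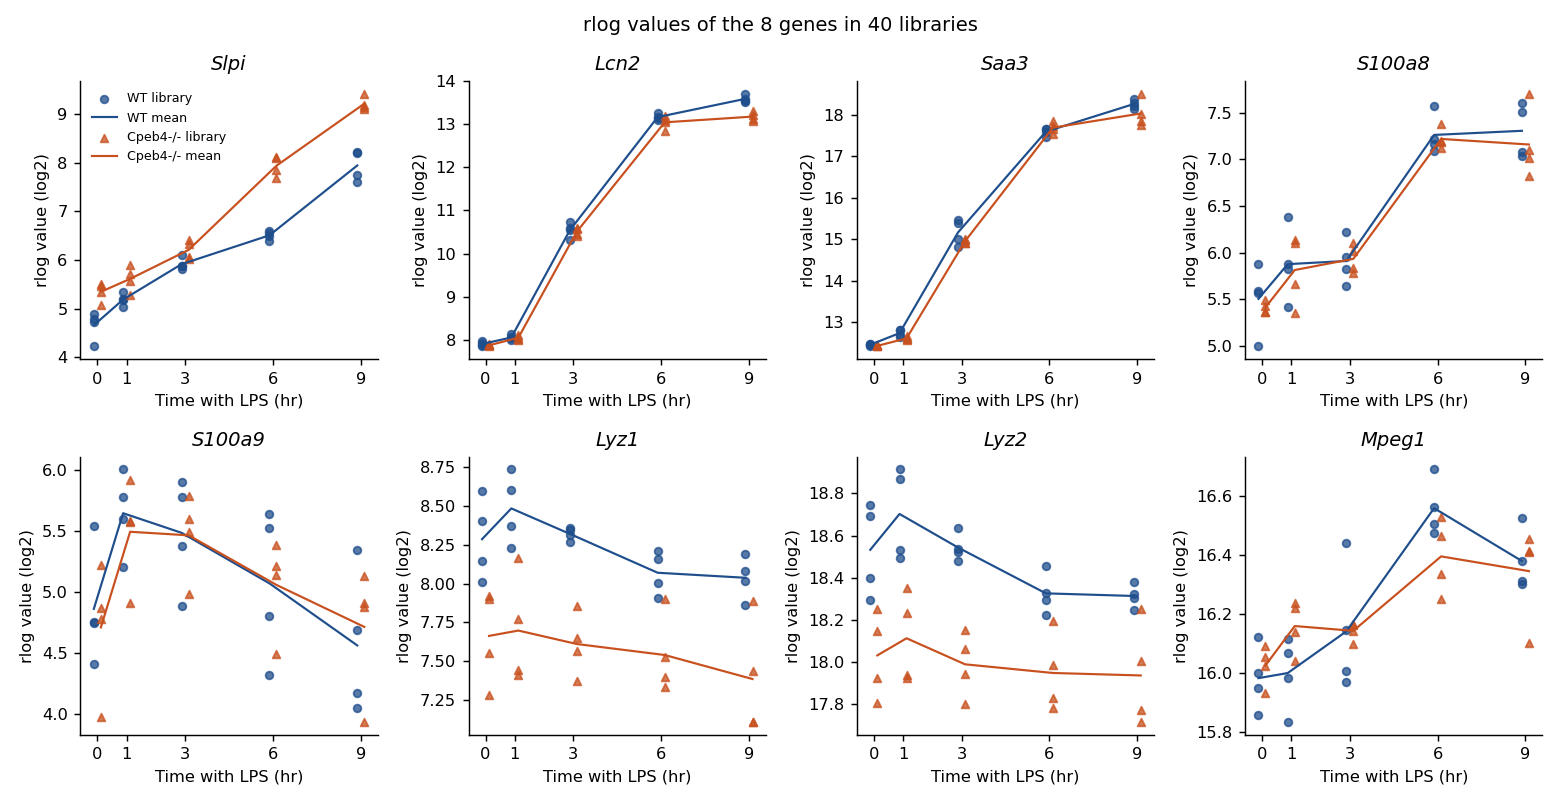
rlog values (log2, vertical axes that do not start at 0) of the 8 genes against hours with LPS, with WT libraries as blue circles, *Cpeb4*-/- libraries as orange triangles and lines through the means of 4. *Slpi* rises to between 9.09 and 9.42 in the knockout and between 7.60 and 8.21 in WT at 9 hr, *Lyz1* and *Lyz2* run lower in the knockout, and *Lcn2* parts only at 9 hr.

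*Lcn2* was not called by genotype up to 6 hr and was lower in the knockout at 9 hr. Its unstimulated values lay between 7.84 and 7.96 in all 8 libraries. At 3 hr the *Cpeb4*-/- libraries read 10.45, 10.41, 10.60 and 10.57 and the WT libraries 10.74, 10.58, 10.54 and 10.31, and the groups overlapped. At 6 hr they read 13.06, 12.84, 13.10 and 13.19 in *Cpeb4*-/- and 13.27, 13.16, 13.14 and 13.11 in WT, a difference of −0.12 (SE 0.066, limma adjusted p = 0.24).
At 9 hr the *Cpeb4*-/- libraries read 13.21, 13.07, 13.31 and 13.13 and the WT libraries 13.54, 13.71, 13.59 and 13.53. Here every knockout library was below every WT library, as in 8.51% of all genes, and *Lcn2* differed by −0.41 (SE 0.064, limma adjusted p = 0.0060), −0.43 in batch 1 and −0.39 in batch 2. WT cells rose by 0.42 ± 0.12 from 6 to 9 hr, in 4 of 4 mice, and knockout cells by 0.13 ± 0.13, in 3 of 4. The response to 9 hr of LPS differed by −0.38 in the knockout (SE 0.095, limma adjusted p = 0.026), a call made for 0.771% of all genes in this direction. That call was lost with quantile normalization (a difference of −0.29, limma adjusted p = 0.12) and when mouse 2, 3 or 62 of the knockout or mouse 69 or 87 of WT was left out, with differences from −0.43 to −0.35 over the 8 mice.

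*Saa3* was the closest of all 13103 genes to *Lcn2* in its profile, and *Lcn2* the closest to *Saa3*, by the root mean square distance of 0.116 between their 10 group means after centring. In WT BMDMs the rises of *Lcn2* over 0 hr were 2.64, 5.27 and 5.69 at 3, 6 and 9 hr, and those of *Saa3* were 2.70, 5.13 and 5.79. In *Cpeb4*-/- BMDMs the rises were 2.64, 5.18 and 5.31 for *Lcn2* and 2.52, 5.25 and 5.59 for *Saa3*. All 12 of these rises passed the threshold, the largest limma adjusted p being 1.80e-21. *Cfb*, complement factor B, followed both at distances of 0.232 and 0.258.

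Genotype made no call for *Saa3* at any time. At 6 hr its libraries read 17.72, 17.64, 17.54 and 17.85 in *Cpeb4*-/- and 17.59, 17.47, 17.65 and 17.66 in WT. At 9 hr they read 18.51, 17.85, 18.01 and 17.74 in *Cpeb4*-/- and 18.22, 18.38, 18.29 and 18.14 in WT. Mouse 2 of the knockout was the highest of the 8 libraries at 9 hr and the other 3 knockout libraries were the lowest. The difference of −0.23 (SE 0.15, limma adjusted p = 0.34) became −0.39 without mouse 2 (limma adjusted p = 0.0097). It was 0.04 with quantile normalization, which gives each rank the same value in every library, so that at such high levels changes of rank can set the result.

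*S100a8* and *S100a9*, neighbours at chr3:90669071-90670034 and chr3:90692630-90695721 whose products pair as calprotectin, followed different time courses. *S100a8* held between 5.00 and 5.87 in all 8 unstimulated libraries and rose late, to 7.38, 7.19, 7.12 and 7.18 in *Cpeb4*-/- and 7.09, 7.22, 7.17 and 7.57 in WT at 6 hr. The 6 hr gain was 1.75 in WT and 1.80 in the knockout (limma adjusted p = 1.97e-10 and 1.10e-10), and the 9 hr gain 1.80 and 1.74. *S100a9* instead had its highest means at 1 hr, with 5.58, 4.91, 5.92 and 5.57 in *Cpeb4*-/- and 5.20, 5.78, 5.60 and 6.01 in WT. It stayed near that level at 3 hr, where the means were 5.47 in *Cpeb4*-/- and 5.49 in WT, against 5.50 and 5.65 at 1 hr. From 1 to 3 hr it rose in 2 of 4 mice of each genotype.
From 0 to 1 hr *S100a9* gained 0.79 in each genotype, in 4 of 4 mice of each, and at 9 hr it differed from 0 hr by −0.30 in WT and 0.00 in the knockout (limma adjusted p = 0.40 and 0.99). The 1 hr gain was called in the knockout (limma adjusted p = 0.046, lost in 5 of 8 fits that left out 1 mouse) and stood at the threshold in WT (limma adjusted p = 0.0501), and both were called with the mouse as replicate block (limma adjusted p = 0.0018 and 0.0020). Across the 40 libraries *S100a8* minus *S100a9* ran from 0.04 to 3.03.

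Neither calprotectin gene differed by genotype at any time in limma. The differences lay between −0.15 and 0.02 for *S100a8* and between −0.15 and 0.15 for *S100a9*, with SE of 0.10 to 0.23 and 0.23 to 0.31. Of 16 markers of neutrophils, the other likely source of these mRNAs, 5 were expressed (*Camp*, *Ngp*, *Mmp8*, *Csf3r* and *Cebpe*). The log2 of the summed level of all 16 lay between 10.9 and 11.1 in unstimulated WT cells and between 11.1 and 11.3 in unstimulated knockout cells. At 6 hr these ranges were 13.2 to 13.5 and 13.1 to 13.3. The sum followed mostly *Csf3r*, which lay between 10.62 and 13.43 over the 40 libraries, so it does not measure an amount of neutrophil mRNA. Of these markers 1 of 6 tested was called higher in the knockout at 6 hr and 1 of 5 at 9 hr, against 6.4% and 4.69% of all genes. None was called lower. The gene was *Mmp8*, the neutrophil collagenase, by 0.66 at 6 hr and 0.73 at 9 hr (limma adjusted p = 0.00022 and 0.00082). The list also held 1 higher call at each of 0, 1 and 3 hr, against 0.741%, 0.976% and 1.81% of all genes. The part of these markers in the values of the 8 genes was not tested.

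Both lysozyme genes had lower means in *Cpeb4*-/- BMDMs at all 5 times, with calls for both at 3 and 6 hr and for *Lyz1* alone at 9 hr. *Lyz2* (chr10:117277541-117282272) read 18.25, 17.80, 18.15 and 17.93 in *Cpeb4*-/- and 18.30, 18.40, 18.69 and 18.75 in WT at 0 hr. At 3 hr it read 18.15, 17.80, 18.06 and 17.95 in *Cpeb4*-/- and 18.52, 18.48, 18.64 and 18.53 in WT. At 9 hr it read 18.25, 17.77, 18.01 and 17.72 in *Cpeb4*-/- and 18.25, 18.31, 18.38 and 18.32 in WT. The genotypes stood apart at 0, 1, 3 and 6 hr and overlapped at 9 hr, and knockout mouse 2 was the highest knockout library at each time.

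The difference in *Lyz2* was −0.50, −0.59, −0.55, −0.38 and −0.38 at 0, 1, 3, 6 and 9 hr (SE 0.084 to 0.13), and it was called at 3 and 6 hr (limma adjusted p = 0.011 and 0.019). *Lyz1* (chr10:117287795-117292868) read 7.86, 7.37, 7.65 and 7.56 in the knockout and 8.36, 8.27, 8.34 and 8.31 in WT at 3 hr, with no overlap. From 0 to 9 hr it differed by −0.62, −0.79, −0.71, −0.53 and −0.65 (SE 0.095 to 0.17), called at 3, 6 and 9 hr (limma adjusted p = 0.0057, 0.0094 and 0.033). At 0 and 1 hr the adjusted p of both lay between 0.054 and 0.084, and both were called there when all 40 libraries were fitted with the mouse as replicate block (limma adjusted p of at most 0.0069). That fit holds the same mice and uses 1 correlation within a mouse for all genes, while mouse 2 ran high among the knockouts throughout. It is therefore no separate support, and at 1 hr it called 2049 of 13103 genes lower. With quantile normalization *Lyz2* at 6 hr was −0.18 and no longer called (limma adjusted p = 0.21). That method gives each rank the same value in every library, and *Lyz2* moved in steps of rank, with a change of 0.0 in WT from 0 to 1 hr. It is therefore a weak check of this gene. The gap was wider in batch 1 than in batch 2 at every time, for *Lyz2* −0.66 against −0.35 at 0 hr and −0.54 against −0.21 at 9 hr.
Without mouse 2 of the knockout *Lyz2* at 9 hr was −0.48 and called (limma adjusted p = 0.0033), and with all 40 libraries and the replicate block it was called as well (limma adjusted p = 0.0062). The 9 hr call of *Lyz1* was lost in 7 of 8 fits that left out 1 mouse, with differences from −0.82 to −0.56. The 6 hr call of *Lyz2* was lost without mouse 3 or 62 of the knockout or mouse 88 of WT, with differences from −0.46 to −0.32. In the study's other mouse line *Cpeb4* is deleted by a Cre driven from *Lyz2*. The cells used here came, per the study, from full knockout mice, and their labels name no Cre. No change of the lysozymes with LPS was called by limma on the rlog values in the fit without the mouse. With the mouse as replicate block *Lyz2* was called 0.17 higher in WT at 1 hr (limma adjusted p = 0.018). The largest change of *Lyz2* from 0 hr was −0.22, in WT at 9 hr (limma adjusted p = 0.10, and 0.0012 with the mouse as replicate block), and that of *Lyz1* was −0.28, in the knockout at 9 hr (limma adjusted p = 0.13, and 0.0073 with the mouse as replicate block).

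*Lyz1* and *Lyz2* share sequence, which bears on their values. Of the 50-base windows in the *Lyz1* transcript, 195 of 1214 (16.1%) also occur in the *Lyz2* transcript, and how reads that fit both were counted is not given in the sources used here. *Lyz1* minus *Lyz2* stayed between −10.66 and −10.12 in all 40 libraries. Summing both after undoing the log gave a log2 difference between genotypes of −0.50, −0.59, −0.55 and −0.38 at 0, 1, 3 and 6 hr, each with 2-sided exact permutation p = 0.029, the smallest that 4 against 4 allows, and −0.38 at 9 hr (exact p = 0.057). Because *Lyz1* read so far below *Lyz2* in every library, the sum is nearly *Lyz2* alone. Its p-values come from the same values and mice and are no separate support. How far the *Lyz1* value rests on reads from *Lyz2* was not tested.

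**Figure D2:**
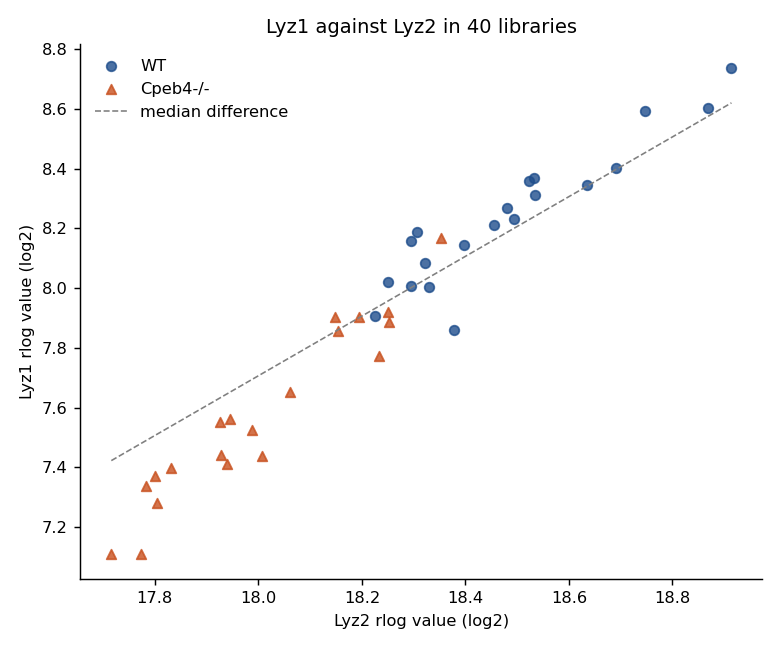
*Lyz1* against *Lyz2* rlog values (log2, axes not starting at 0) in 40 libraries, WT as blue circles and *Cpeb4*-/- as orange triangles, with a dashed line at the median difference of −10.29. Most knockout libraries lie at the lower left and most WT libraries at the upper right, and *Lyz1* minus *Lyz2* stays between −10.66 and −10.12.

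*Mpeg1* (chr19:12460770-12465285) was not called by genotype at any time. It read 16.33, 16.47, 16.53 and 16.25 in *Cpeb4*-/- and 16.51, 16.56, 16.47 and 16.69 in WT at 6 hr, a difference of −0.16 (SE 0.073, limma adjusted p = 0.15). It stood above 0 hr by 0.58 at 6 hr and 0.40 at 9 hr in WT (limma adjusted p = 1.28e-07 and 7.58e-05) and by 0.37 and 0.32 in the knockout (limma adjusted p = 0.00017 and 0.0010), but this direction rested on the scaling, since quantile normalization gave −0.03 and 0.01 in WT and −0.30 and −0.11 in the knockout.

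Counted over the 8 members, with *Slpi* left out at 6 hr, genotype calls were few. Nothing is read from their direction, since most of the lower calls were of *Lyz1* and *Lyz2*, which share sequence and moved together. No member was called at 0 hr, against a background of 0.741% of all genes higher and 0.565% lower, and none at 1 hr, against 0.976% higher and 0.938% lower. At an unadjusted limma p below 0.05 there were 3 at 0 hr and 4 at 1 hr, and the fit of all 40 libraries, with or without the replicate block, called 3 at each of these times. At 3 hr 2 of 8 were lower (*Lyz1* and *Lyz2*, background 1.87%) and none higher (1.81%), with 3 of 8 at an unadjusted limma p below 0.05. At 6 hr the same 2 of the 7 tested were lower (background 9.92%) and none higher (6.4%), with 3 of 7 at an unadjusted limma p below 0.05. With quantile normalization the 6 hr background shifted from 835 genes higher and 1294 lower to 1025 and 986. At 9 hr 1 was higher (*Slpi*, background 4.69%) and 2 lower (*Lcn2* and *Lyz1*, background 3.22%).
Libraries that did not overlap were counted too. At 0 hr 1 member was wholly higher (background 5.51%) and 2 wholly lower (5.04%), at 1 hr none and 2 (7.55% and 8.11%), at 3 hr none and 2 (7.05% and 6.58%), at 6 hr 1 and 2 (8.16% and 12%), and at 9 hr 1 and 1 (8.35% and 8.51%). The member wholly higher at 6 hr is *Slpi*, chosen on that comparison, so nothing is read from its count. The median genotype difference over the members was −0.06, −0.09, −0.03, −0.08 and −0.19 from 0 to 9 hr, and over all genes tested it lay between −0.02 and 0.02.

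All LPS calls among the members were upward in the limma fit of rlog values without the mouse, but not after quantile normalization, which called 1 of 8 lower in WT at each time. These were *Mpeg1* at 1 and 3 hr (−0.33 and −0.38) and *Lyz2* at 6 and 9 hr (−0.57 and −0.61). The values of *Lyz2* there follow its rank among the highest genes and do not measure a fall on their own. In the knockout it called *Mpeg1* lower at 1, 3 and 6 hr and *Lyz2* at 3, 6 and 9 hr. By the fit of rlog values, in WT 2 members were higher at 1 hr (*Slpi* and *Saa3*), against a background of 19.4% of all genes, which quantile normalization moved from 2548 higher and 2396 lower to 2063 and 3396, and 5 with the mouse as replicate block. At 3 hr 3 of 8 were higher in WT (background 33.5%), 6 with the block. At 6 and at 9 hr 5 of 8 were higher, *Slpi*, *Lcn2*, *Saa3*, *S100a8* and *Mpeg1* (the last only without quantile normalization), against 39.7% and 37% of all genes. In *Cpeb4*-/- 2 were higher at 1 hr (background 22.6%, with 2958 genes higher and 2537 lower that became 2304 and 3781 with quantile normalization), 5 at 3 hr (33.7%), 4 of the 7 tested at 6 hr (38.4%) and 5 at 9 hr (35.7%). No member was called lower with LPS in either genotype by this fit, against backgrounds of 18.3%, 36.4%, 40.2% and 36.6% in WT and 19.4%, 36.2%, 39.5% and 35.6% in the knockout. With the mouse as replicate block *Lyz1* and *Lyz2* fell in WT, by 0.22 and 0.21 at 6 hr (limma adjusted p = 0.030 and 0.0018). The LPS response differed by genotype for none of the 8 members at 1 or 3 hr and none of the 7 tested at 6 hr in limma, against backgrounds of 0%, 0.0763% and 0.901% higher and 0.00763%, 0.13% and 2.04% lower, and for *Lcn2* alone at 9 hr, against 0.992% higher and 0.771% lower. At an unadjusted limma p below 0.05 there were 0 members at 1, 3 and 6 hr and 2 at 9 hr, and quantile normalization called 0 at each of these times.

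**Figure D3:**
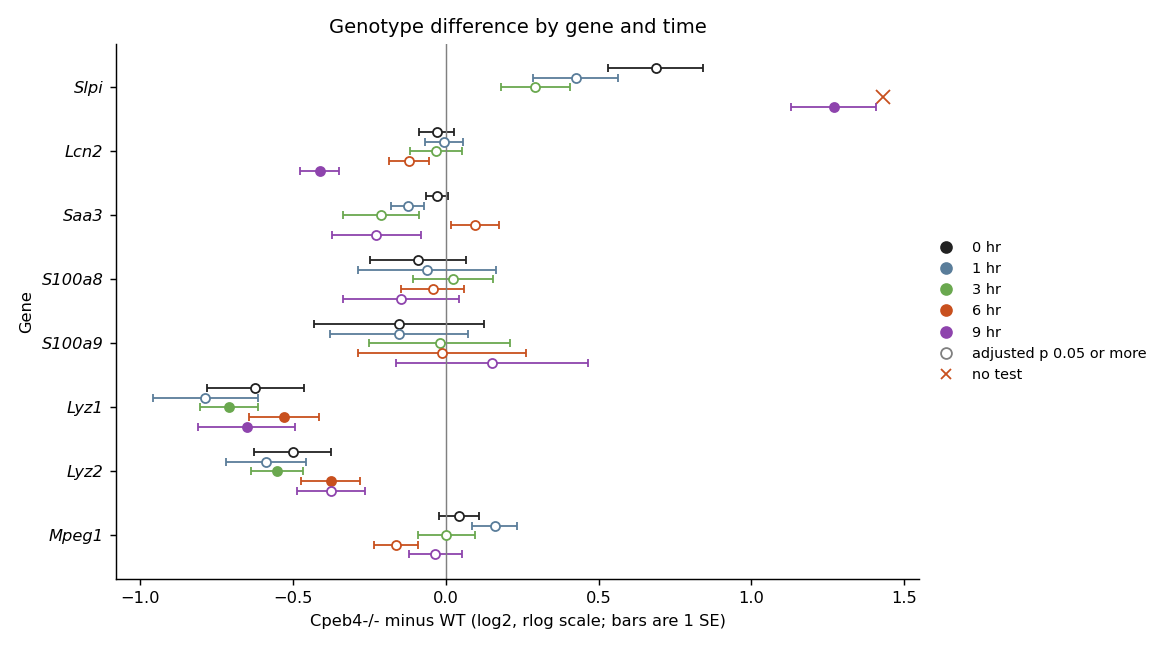
*Cpeb4*-/- minus WT difference (log2, rlog scale) for the 8 genes at 5 times of LPS, with bars of 1 SE, filled points where the adjusted p was below 0.05, open points where it was not, and a cross for *Slpi* at 6 hr, which has no test. *Slpi* lies right of 0 at all times, up to 1.43, *Lyz1* and *Lyz2* lie left of 0 at all times, and *Lcn2* leaves 0 only at 9 hr, at −0.41.

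*Slpi* sits in a stretch of chromosome 2 where many genes differed between these mice. Of 96 genes in the table that start within 2 Mb of it, 46 were tested at 6 hr, and 15 were lower in *Cpeb4*-/- and 3 higher, against 9.92% and 6.4% of all genes. Before LPS 9 of 45 were lower and none higher, with 19 at an unadjusted limma p below 0.05, against 0.565% and 0.741%. Of these genes, 5 were lower at all 5 times, among them *Slc13a3*, a dicarboxylate transporter 1051 kb from *Slpi* (−2.04 at 0 hr and −3.07 at 6 hr, limma adjusted p = 3.39e-06 and 2.32e-07), *Serinc3* at −731 kb (−1.49 and −1.19), *Pkig* at −696 kb (−0.89 and −0.77) and *Sulf2* at 1720 kb (−0.65 and −0.92).
The 3 higher in the knockout at 6 hr, named after their values were seen, were *Sys1* at 103 kb (0.44, SE 0.058), *Stk4* at −280 kb (0.24, SE 0.042) and *Mmp9* at 586 kb (0.44, SE 0.10). *Mmp9* encodes a gelatinase that lipocalin 2 binds, and it was 0.62 higher at 9 hr as well (limma adjusted p = 0.0095). The mice were of mixed C57BL/6J and 129 background, and whether they differed in this stretch of chromosome 2, and its part in the *Slpi* difference, was not tested. Between *Stk4* and *Sdc4*, 70.2 kb from *Slpi* on the other side, no gene but *Slpi* was tested at 0, 3, 6 or 9 hr. *Rbpjl*, which lies between *Slpi* and *Sdc4* and is named after its values were seen, was tested at 1 hr only, where its values lay between 3.92 and 5.28 in the knockout and between 0.66 and 1.87 in WT. Its WT values lay below the mean level needed for a test, so it was tested there only because its knockout values were high. Its difference of 3.20 at 1 hr is therefore given as a description without a test.

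**Figure D4:**
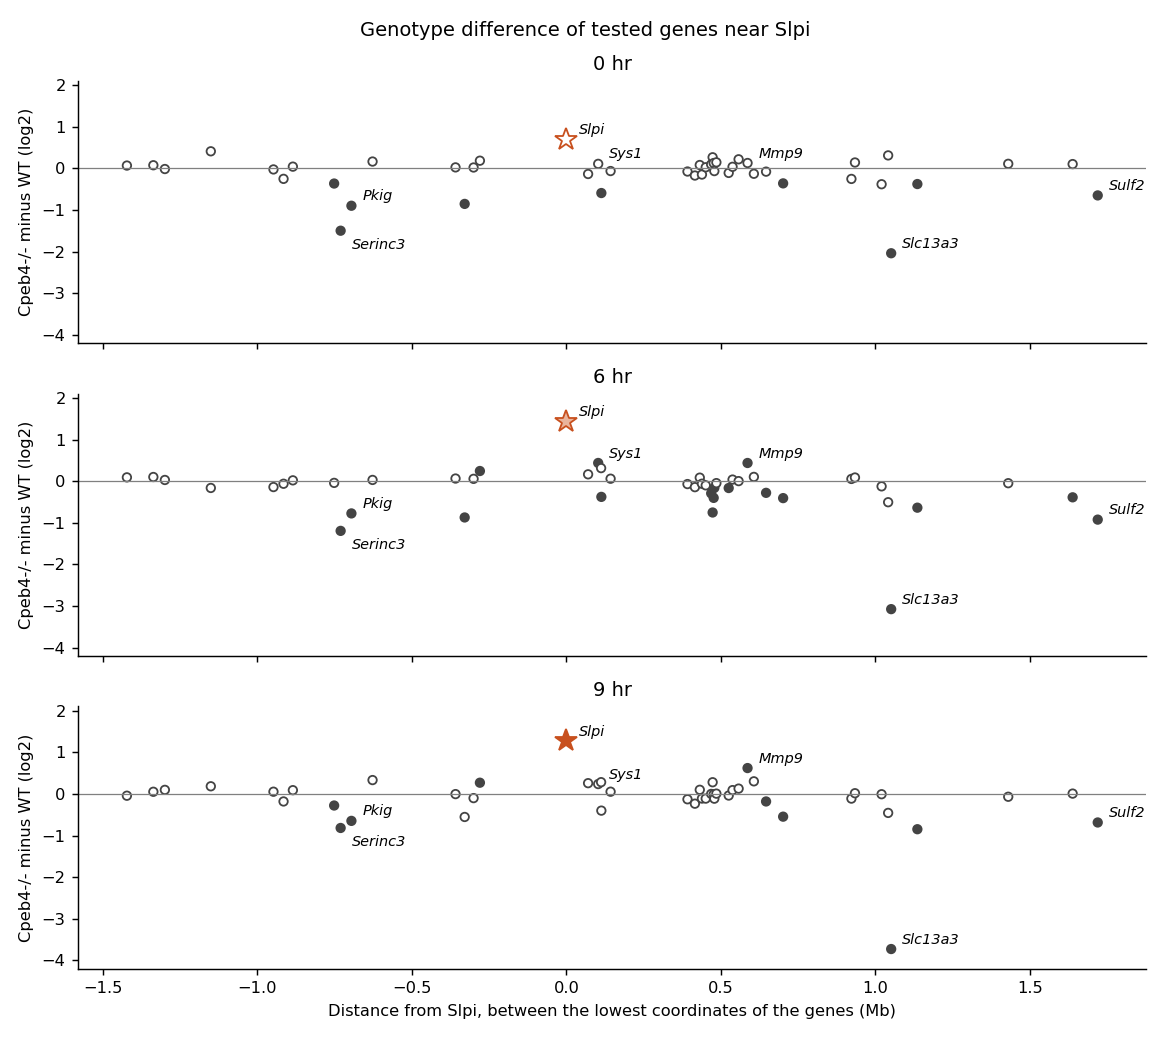
*Cpeb4*-/- minus WT difference (log2) of the tested genes within 2 Mb of *Slpi* at 0, 6 and 9 hr, against distance from *Slpi* in Mb, taken between the lowest coordinates of the genes, with filled points where the adjusted p was below 0.05 and a star for *Slpi* (open at 0 hr, pale at 6 hr where it has no test, filled at 9 hr). *Slc13a3* lies lowest, at −2.04, −3.07 and −3.73, and *Slpi* highest, at 0.69, 1.43 and 1.27.

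Among genes of like function, *Wfdc21*, another WAP-domain gene, was also higher in the knockout late in the response. Its means were 3.12 ± 0.059, 6.66 ± 0.094 and 7.12 ± 0.12 in WT and 3.09 ± 0.079, 7.56 ± 0.24 and 7.71 ± 0.22 in the knockout at 0, 6 and 9 hr (SD, n = 4). It was 0.90 higher in the knockout at 6 hr (SE 0.11, limma adjusted p = 0.00045) and 0.59 higher at 9 hr (SE 0.11, limma adjusted p = 0.012). It is the only one called of the 3 WAP-domain genes tested besides *Slpi*, where 6.4% of all genes were called higher at 6 hr and 4.69% at 9 hr. *Wfdc18* rose with LPS by 2.09 in WT after 9 hr and by 2.05 in the knockout and was not called by genotype at 6 or 9 hr.

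Of the proteases that such inhibitors act on and other antiproteases, 11 were tested at 6 hr, with 1 higher and 4 lower in the knockout. For this and each following list, the shares of all genes called at 6 hr were 6.4% higher and 9.92% lower, and at 9 hr 4.69% and 3.22%. *Serpinb2*, which inhibits plasminogen activators, was 1.07 higher at 6 hr and 0.78 at 9 hr (limma adjusted p = 4.74e-05 and 0.0061). *Cst7*, cystatin F, differed by −0.53 and −0.60 (limma adjusted p = 0.00039 and 0.014), and *Serpina3f* and *Serpina3g* by −0.61 and −0.59 at 6 hr (limma adjusted p = 0.018 and 0.041). In quantile-normalized values 2 of the 11 were higher and 3 lower.

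Of 8 other acute phase genes tested in WT, 5 were called higher after 9 hr of LPS and none lower, against 37% and 36.6% of all genes, among them *Hp*, haptoglobin, by 5.65, *Cfb* by 4.99, *Ptx3*, a secreted pentraxin, by 2.63, and *C3*, the central complement component, by 2.54. By genotype at 6 hr, 2 of 9 were higher, *Ptx3* by 0.64 and *Hp* by 0.29 (limma adjusted p = 0.0051 and 0.035), and 1 lower, *C3* at −0.43 (limma adjusted p = 0.018). At 9 hr none of 8 was called in limma, with 2 at an unadjusted p below 0.05.

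Of 9 iron genes tested at 6 hr, 1 was lower and 1 higher in the knockout. *Trf*, transferrin, differed by −0.32 (limma adjusted p = 0.00080) and *Hmox1*, heme oxygenase 1, was 0.26 higher (limma adjusted p = 0.049). With 9 hr of LPS *Slc40a1*, ferroportin, changed by −2.23 in WT and −1.84 in the knockout, and *Hmox1* rose by 2.08 and 2.14.

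Of the 6 other S100 genes tested, 5 were lower in WT after 9 hr of LPS and none higher, against 36.6% and 37% of all genes, with *S100a4* at −0.79 and *S100a6* at −0.63 (limma adjusted p = 7.05e-06 and 5.56e-06). Only *S100a10* was called by genotype at 6 hr, 0.20 higher (limma adjusted p = 0.016). Of the other genes whose products attack bacterial walls or membranes, none of 5 was called by genotype at 6 hr in limma, with 1 at an unadjusted p below 0.05.

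Of 14 transcription factors of late LPS genes, 2 were higher and 5 lower in the knockout at 6 hr, the largest difference being that of *Cebpa*, a C/EBP factor of myeloid cells, at 0.60 higher (SE 0.092, limma adjusted p = 0.0014) and 0.53 higher at 9 hr (limma adjusted p = 0.011). The lower calls included *Klf6*, *Rela* and *Spi1*, at −0.22, −0.14 and −0.19, and with quantile normalization none of the 14 was called lower and 3 were higher. Of 10 cytokines that can induce acute phase genes, 3 were higher at 6 hr, *Il6* by 0.48, *Osm* by 0.46 and *Csf3* by 0.37, and 2 lower, *Il10* at −0.78 and *Tnf* at −0.35 (limma adjusted p of at most 0.021).

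Of 13 receptors and partners of the members tested at 6 hr, 1 was higher and 3 lower in the knockout, and 4 were higher and 3 lower with quantile normalization. *Fpr2*, a receptor of serum amyloid A, differed by −0.21 at 6 hr and −0.37 at 9 hr (limma adjusted p = 0.0061 and 0.013), and *Cd68* by −0.26 and −0.25. Of 9 macrophage markers none was called at 0, 1 or 3 hr in limma, with 2, 4 and 3 at an unadjusted p below 0.05 and none called with quantile normalization. Even so, the log2 of their summed level at 0 hr lay between 17.53 and 17.60 in the knockout and between 17.61 and 17.70 in WT, without overlap. These ranges overlapped at 1, 3 and 9 hr. At 6 hr 5 of the 9 were called lower in the knockout, among them *Mrc1* at −0.44, and none higher, and the log2 of their summed level lay between 17.80 and 17.94 in the knockout and between 17.954 and 17.985 in WT. After quantile normalization 4 of the 9 were lower and 2 higher. At 9 hr 3 were lower, and 1 with quantile normalization. Their part in the lysozyme difference was not tested.

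By the same distance over 10 group means, the genes nearest to *Slpi* were *Adgb* (0.257), *Antxr1* (0.381) and *2010005H15Rik* (0.454), a measure that includes the 6 hr values by which *Slpi* was chosen. *Lyz2* was nearest to *Tcn2* (0.0848), *Cpq* (0.0987) and *Lyz1* (0.103), and *Lyz1* to *Lyz2*, *Apoe* (0.117) and *Apoc2* (0.122). *S100a8* was nearest to *Ctsc* (0.118), which encodes the protease that activates neutrophil serine proteases, *S100a9* to *Il10ra* (0.0968), and *Mpeg1* to *Pdcd6ip* (0.0410).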

How the data were processed

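Bone marrow-derived macrophages of 4 WT and 4 *Cpeb4*-/- mice at 5 LPS times gave 40 poly(A) RNA-seq libraries. The deposited values are log2 values: per the methods, the authors aligned reads to mm10 with STAR 2.3.0e, counted them per gene with featureCounts and applied the rlog transform of DESeq2 to all libraries, which corrects for library size and shrinks low counts. Read totals are not given in the table, so the counting error of a value is unknown here, and treatment of reads that map to several genes is not given in the sources used here.

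Groups came from the sample labels. Genotypes were compared at each time with limma 3.58.1 in R 4.3.3 (eBayes with trend, 8 libraries), and times and genotype by time in 1 fit of the 10 group means over 40 libraries. A gene was tested where its rlog averaged log2 of 5 or more in the libraries fitted. Adjusted p-values follow Benjamini and Hochberg over every gene tested, and the threshold was 0.05. The scripts were tested on simulated data. Each mouse gave all 5 times, so mouse numbers pair the libraries: deviations from group means had a median correlation of 0.29 over 80 pairs from the same mouse and −0.0907 over 240 pairs from other mice of the genotype. The p-values of a time fit without the mouse treat its libraries as separate. The genotype fit of all 40 libraries with the block uses 1 correlation within a mouse for all genes and still rests on 4 mice of each genotype.

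The members and gene lists were chosen with earlier results of these data known. Besides the members and *Cpeb4*, the text names list genes called at 6 or 9 hr (at most 4 a list, by size), the 2 per list with the largest LPS change in WT, the 3 nearest profiles of each member, and called genes within 2 Mb of *Slpi* (at most 6). Other names are said to be chosen after their values were seen, apart from defining markers. Promoters came from RefSeq GRCm38.p6. Alternatives were no filter, a mean rlog of at least 5, no trend, robust eBayes, quantile normalization, batch as covariate, leaving out each mouse, libraries of 1 genotype only, all 40 libraries in 1 fit, and the mouse as replicate block. Sums of *Lyz1* and *Lyz2* were compared by a 2-sided exact permutation test.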

Additional observations from a re-analysis of the deposited data

Results flagged for a closer look

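In *Cpeb4*-/- BMDMs at 9 hr the *Mpeg1* value of mouse 2, 16.1, lay far below the other 3 libraries (16.41 to 16.45) for the spread of its group. It was the only library past Dixon's critical value in 80 groups of 4, where chance alone passes about 1 group in 20. The change of *Lcn2* from 0 to 9 hr of LPS differed between genotypes by −0.384 on the log2 scale (limma adjusted p = 0.026), and the call was lost with quantile normalization and in 5 of the 8 fits that left out 1 mouse.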

How the results depend on the processing

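The counts of members called were the same with a mean rlog of at least 5, robust eBayes and libraries of 1 genotype only. Between genotypes, 0 hr went from 0 to 1 with batch as a covariate and to 3 with all 40 libraries in 1 fit, with or without the replicate block. In both of those fits 1 hr went from 0 to 3, where 2202 (without the block) and 2274 (with it) of 13103 genes were called higher. With quantile normalization 6 hr went from 2 to 1. For LPS, WT at 1 hr went from 2 to 4 (quantile, 3 higher and 1 lower) or 5 (mouse as replicate block), WT at 3 hr from 3 to 6 (quantile, 5 higher and 1 lower, or the block), and the knockout at 1 hr from 2 to 1 without a filter or without trend. The block changed no other count of the LPS and genotype by time comparisons by over 1.5 times. Genotype by time at 9 hr went from 1 to 0 with quantile normalization, which also gave −0.28 for summed lysozymes at 9 hr (exact p = 0.029). At the level of *Lyz2*, and of *Saa3* at 9 hr, this normalization follows ranks, so its values there are a weak check. Quantile normalization turned the genotype difference of *S100a8* at 3 hr to −0.025, *Mpeg1* at 9 hr to 0.026 and *Saa3* at 9 hr to 0.042, and the LPS change of *Mpeg1* to −0.028 (WT, 6 hr), −0.30 (knockout, 6 hr) and −0.11 (knockout, 9 hr). It moved the calls of genotype by time at 6 hr over all genes from 118 higher and 267 lower to 102 and 125. The causes were not tested.

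Leaving out 1 mouse gave 0 to 2 members at 1 hr between genotypes (2 without knockout mouse 2 or WT mouse 69), 1 to 2 at 6 hr, 2 to 5 at 9 hr (5 without knockout mouse 2), 1 to 2 for WT at 1 hr (1 without WT mouse 25, 87 or 88 or knockout mouse 55), 0 to 2 for the knockout at 1 hr, 3 to 5 for the knockout at 3 hr (fewer without mouse 55 or 62), and 0 to 1 for genotype by time at 9 hr. Summed lysozymes ranged from −0.58 to −0.42 at 0 hr, −0.67 to −0.52 at 1 hr, −0.46 to −0.32 at 6 hr and −0.48 to −0.30 at 9 hr, where 3 against 4 libraries limits the exact p. Genotype differences that changed sign ranged, for *S100a8*, from −0.26 to 0.032 at 0 hr, −0.21 to 0.11 at 1 hr, −0.065 to 0.12 at 3 hr and −0.099 to 0.059 at 6 hr. For *S100a9* they ranged from −0.32 to 0.093, −0.30 to 0.043, −0.22 to 0.14, −0.26 to 0.18 and −0.020 to 0.41 from 0 to 9 hr. For *Lcn2* they ranged from −0.029 to 0.019 at 1 hr and −0.11 to 0.033 at 3 hr, and for *Mpeg1* from −0.056 to 0.10 at 3 hr and −0.070 to 0.047 at 9 hr. *Saa3* at 3 hr was −0.33 and called without WT mouse 88 (limma adjusted p = 0.034), and its WT call at 1 hr was lost in 6 of 8 such fits. Without read totals, the precision of low values such as those of *S100a9* is unknown.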

Other observations

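Of the other cell type markers, 5 of 8 dendritic cell genes were tested at 6 hr and 1 was lower in the knockout, *Xcr1* at −0.49 (limma adjusted p = 0.012). Of 10 T, B and NK cell markers 2 were tested and 1 was lower, *Cd4* at −0.38 (limma adjusted p = 0.019). Of 10 stromal markers 3 were tested, with 0 called in limma and 0 at an unadjusted p below 0.05, and *Dcn* and *Pecam1* stood 2.49 and 2.32 above 0 hr in WT at 9 hr. None of 10 mast cell, eosinophil and erythroid markers reached the level needed for a test.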
